A study of Homo sapiens with 6 samples.

Results

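Drug and organic ion transporters are membrane proteins that carry drugs, bile acids, conjugated bilirubin, hormones, carnitine and other charged organic molecules into or out of cells. The genes described here are the protein-coding genes whose GENCODE symbol begins with ABCB, ABCC, ABCG, SLCO, SLC22A or SLC47A followed by a number, and they are 61 of the 60675 counted genes and of the 19542 protein-coding genes among these. Sorted by known role or by family, 33 were placed with uptake at the cell surface, 20 with efflux out of the cell, and 7 with neither. Those 7 serve membranes inside the cell or form part of a potassium channel. The 33 include orphan SLC22A members such as SLC22A18 and SLC22A23, placed there by family and not by an established role. The readthrough gene SLCO1B3-SLCO1B7 was given no role and had no read in any library. The sorting follows textbook roles where these are known, and no transport was measured.

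PLC/PRF/5, a human hepatocellular carcinoma line that carries integrated hepatitis B virus DNA, was sequenced as 3 control libraries and 3 libraries after knockdown of MTR4 (MTR4 KD), all from cells grown in DMEM with fetal bovine serum. MTR4 is an RNA helicase that hands nuclear RNA to the exosome for processing or decay. The study's text describes an inducible knockdown with cells taken before and after induction, while the labels give only control and MTR4 KD, and a library of induced cells with a non-targeting hairpin was not analysed here. The labels number the libraries 1 to 3 in each group without saying that they were separate cultures, so p-values measure the spread between these libraries, which may be technical.

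In a hepatocyte, uptake carriers of the SLCO family (organic anion transporting polypeptides) and the SLC22A family (organic cation, organic anion and carnitine transporters) sit mainly on the blood side of the cell. ATP-driven pumps of the ABCB, ABCC and ABCG families, together with the proton antiporters of the SLC47A family, move drugs, conjugates and bile acids out, some into bile and some back to blood. Cultured liver tumour cells often keep some of these proteins and lose others.

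The libraries held 60686786 to 72708682 reads assigned to genes. MTREX, the gene of MTR4, had 72.2, 87.4 and 74.4 CPM (reads of the gene per 1000000 reads of the TMM-scaled library, the unit of the levels here) in control libraries 1 to 3 and 44.6, 48.8 and 44.1 CPM in MTR4 KD libraries 1 to 3, a log2 fold change of -0.77 (SE 0.090, adjusted p = 0.00641). Unless another test or a library left out is named, adjusted p-values are from edgeR's quasi-likelihood test on all 6 libraries with Benjamini-Hochberg adjustment over the 18075 genes that passed the count filter. The libraries fell into 2 kinds that crossed the groups. Control 1, control 3 and MTR4 KD 3 had 34.7% to 37.5% of HTSeq entries on non-unique alignments, and control 2, MTR4 KD 1 and MTR4 KD 2 had 14.8% to 18.2%. These kinds are called library batches here, a split taken from the files and not from the labels, and results are also given within each batch and from a fit with the batch as a covariate. All 10 hepatocyte markers on a list were above 1 CPM in the mean and summed to 24244 to 26226 CPM per library. Of these, 4 (ALB, APOA1, TTR and APOH) were higher in MTR4 KD at an adjusted p under 0.05, beside 1.48% of all tested genes. None was lower at that threshold, though AFP, SERPINA1 and TF had negative log2 fold changes of -0.12, -0.21 and -0.08. A list of 7 matched markers of blood, vascular, connective tissue and squamous cells summed to 35.4 to 39.9 CPM in control and 29.0 to 34.1 CPM in MTR4 KD libraries. Most of this came from LYZ at means of 29.9 and 25.3 CPM. PTPRC, VWF and KRT5 had group means under 1 CPM, but PTPRC reached 1.81 CPM in control 3 and KRT5 1.49 CPM in control 1. All 4 tested markers of this list had negative log2 fold changes (-1.34 for CD14, adjusted p = 0.082), and none passed the test with condition only. The batch fit called 3 of the 4 lower, beside 10.8% of all tested genes. These were CD14 (adjusted p = 0.0082), LYZ (adjusted p = 0.012) and COL3A1 (adjusted p = 0.040). The part of these marker shifts in the results was not tested.

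Of the 61 transporter genes, 28 had a mean of at least 1 CPM, 39 passed the count filter, 11 had at most 3 reads in each library, and 3 had no read in any. Among uptake genes 19 of 33 passed the filter and 11 reached 1 CPM, and among efflux genes 16 of 20 passed and 13 reached 1 CPM. Levels of different genes are compared here as CPM per kilobase of the Ensembl canonical transcript. On that scale, the uptake genes summed to 126 ± 17.4 in control and 121 ± 16.4 in MTR4 KD (SD, n = 3 each), and the efflux genes to 149 ± 1.19 and 145 ± 2.49. The efflux sum divided by the uptake sum was 1.20 ± 0.17 in control and 1.22 ± 0.16 in MTR4 KD libraries. It ran from 1.04 to 1.13 in the libraries with more non-unique reads and from 1.29 to 1.39 in those with fewer. This ratio thus followed the library batch, and its groups overlapped over all 6 libraries. Within both batches, however, the MTR4 KD ratios were below the control ratios, unlike the group means. With more non-unique reads the ratio was 1.13 in control 1, 1.08 in control 3 and 1.04 in MTR4 KD 3. With fewer it was 1.39 in control 2, 1.33 in MTR4 KD 1 and 1.29 in MTR4 KD 2. Each batch held only 1 library of a group, so this difference was not tested. SLC22A18 had 70.5 to 77.6 CPM per kilobase in control 1, control 3 and MTR4 KD 3, and 44.5 to 49.3 in the others. The ratio leans on this gene, so the overlap does not show that the remaining genes lacked a group difference. A ratio without SLC22A18 was not tested.

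One gene on each side gave a large share of these sums. SLC22A18, a multi-pass membrane protein often called an orphan transporter, gave 41.3% to 55.5% of the uptake sum in a library. ABCC2 (MRP2), the pump that puts conjugated bilirubin and other conjugates into bile, gave 41.5% to 43.4% of the efflux sum. The 5 uptake genes with the highest means over all 6 libraries had control means, in CPM per kilobase, that put SLC22A18 at 66.0 ± 14.9, SLCO2B1 at 29.0 ± 1.58, SLC22A23 at 11.5 ± 0.028, SLC22A5 at 6.48 ± 0.16 and SLC22A9 at 2.60 ± 0.30. The ranges of the first 4 over the 6 libraries lay apart from each other and from that of SLC22A9, which overlapped the ranges of lower genes. Among efflux genes ABCC2 stood at 63.0 ± 1.09, above ABCG2 at 21.8 ± 0.90, ABCC4 at 17.3 ± 0.67, ABCC1 at 15.9 ± 1.00 and ABCC5 at 10.6 ± 0.68. The range of ABCC2 lay above all others, while the ranges of ABCG2, ABCC4, ABCC1 and ABCC5 each overlapped that of the next gene.

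**Figure D1:**
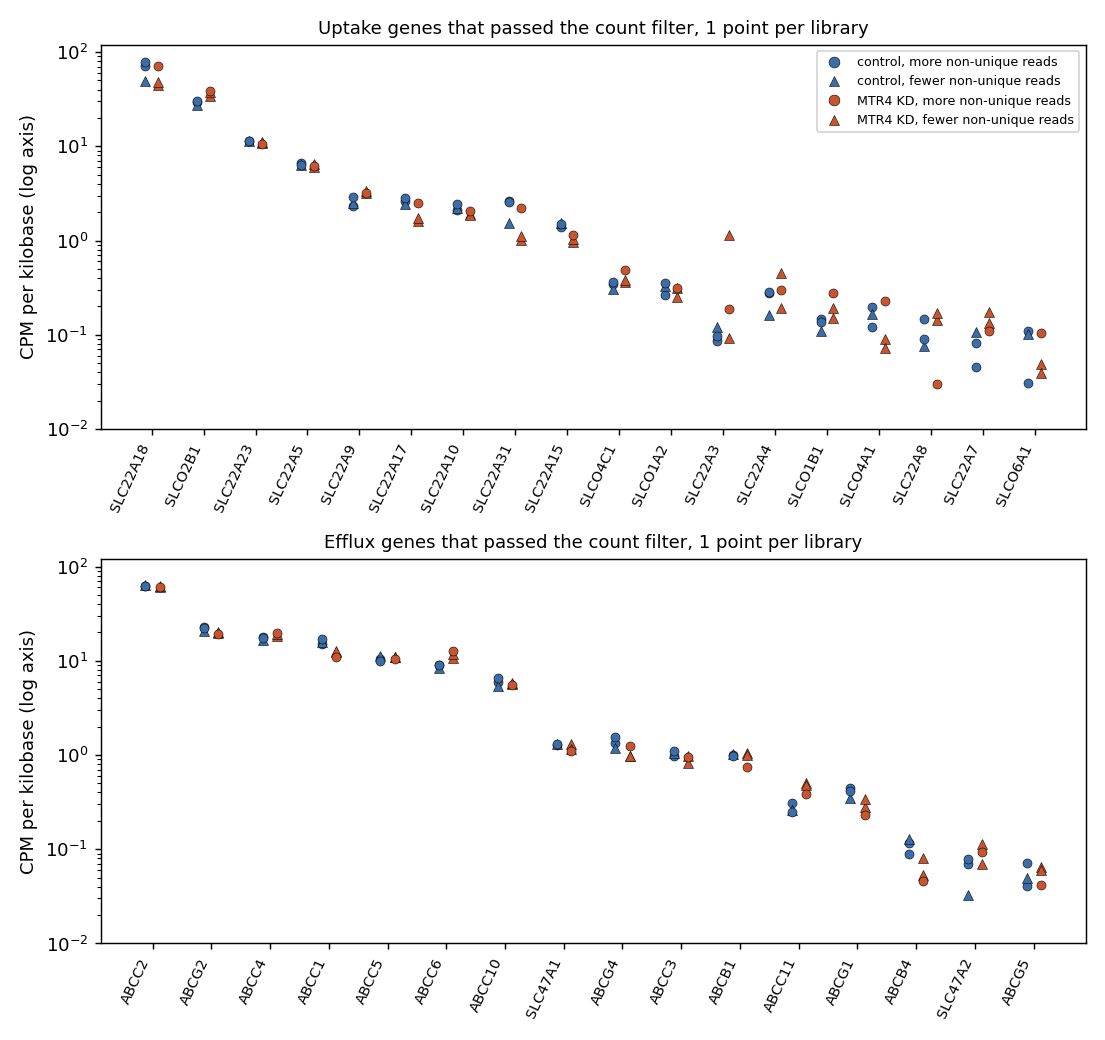
Level of uptake genes (top) and efflux genes (bottom) that passed the count filter, without 1 gene that is not reported, in CPM per kilobase of transcript on a log axis, with 1 point per library. Blue is control and orange MTR4 KD, circles are libraries with more non-unique reads and triangles those with fewer. SLC22A18, SLCO2B1 and ABCC2 lead, SLC22A18 shows circles above triangles in both groups, and the genes at the right of each panel lie under 1.

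After MTR4 knockdown, few transporter genes passed the test, and those that did changed by less than 2-fold. SLCO2B1 and ABCC6 were higher and ABCC1 was lower, by 1.27-fold, 1.34-fold and to 0.755 of the control mean. That is 2 genes called higher and 1 called lower of the 39 tested, where 1.48% of all tested genes were called higher and 2.12% lower. No transporter gene passed both an adjusted p under 0.05 and a fold change over 2, which 0.83% of all tested genes did. At an unadjusted p under 0.05, 11 of the 39 passed, beside 18.8% of all tested genes. In bulk RNA, fewer cells that carry a transcript and less of that transcript per cell cannot be told apart. All 3 calls were lost when any 1 of the 6 libraries was left out, with adjusted p-values up to 0.23 for SLCO2B1, 0.17 for ABCC6 and 0.17 for ABCC1.

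With the library batch as a covariate, 4 transporter genes were called higher (SLCO2B1, ABCC6, ABCC4 and ABCC11) and 2 lower (ABCC1 and SLC22A15), against 9.43% and 10.8% of all tested genes. The 39 log2 fold changes from the fit with condition only had 16 positive and 23 negative values, with a median of -0.06 beside 0.01 over all tested genes. The medians were -0.06 for uptake genes (9 positive, 10 negative) and -0.08 for efflux genes (6 positive, 10 negative). Within both batches the difference between MTR4 KD and control had the same sign for 31 of the 39 genes, beside 67.9% of all tested genes. Every MTR4 KD library lay above every control library for 9 tested transporter genes and below for 8, beside 12.1% and 12.6% of all tested genes.

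**Figure D2:**
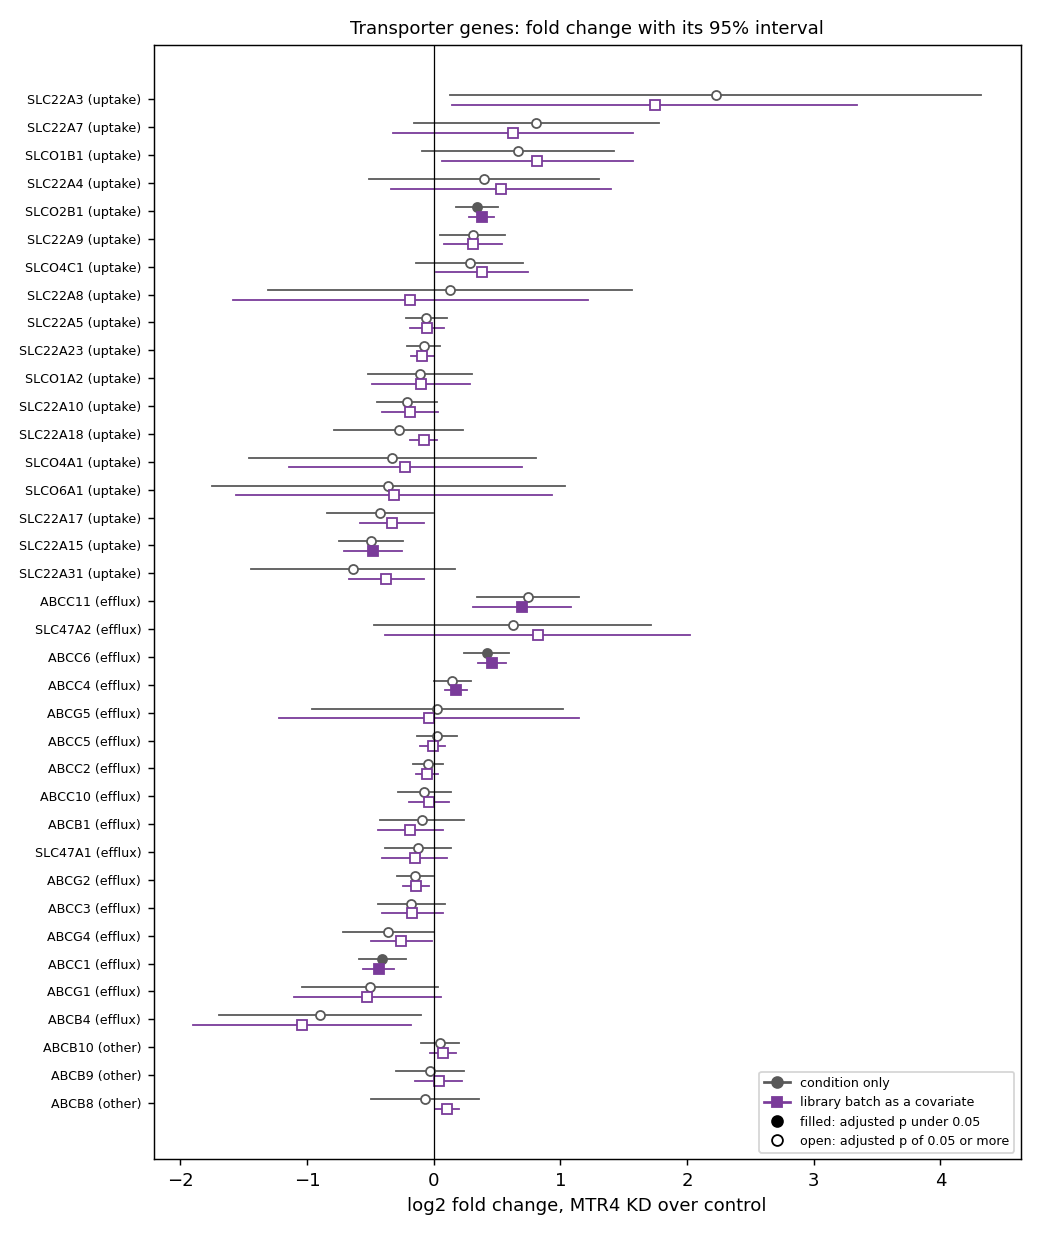
Log2 fold change of MTR4 KD over control for the tested transporter genes other than 2 that are not reported, with 95% intervals, from the fit with condition only (grey circles) and the fit that includes the library batch (purple squares). Filled symbols have an adjusted p under 0.05. Most intervals cover 0, SLCO2B1, ABCC6 and ABCC1 are filled in both fits, and the widest intervals belong to genes of few reads such as SLC22A3.

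Uptake carriers of the SLCO family showed 1 change among 6 tested of 11 genes. SLCO2B1 (ENSG00000137491), which takes up steroid sulfates and many drugs, lies on the plus strand of GRCh38 chromosome 11 at 75151107 to 75206549. It had 129, 119 and 133 CPM in control libraries 1 to 3 and 151, 164 and 168 CPM in MTR4 KD libraries 1 to 3. All MTR4 KD libraries were above all control libraries, with a log2 fold change of 0.34 (95% interval 0.18 to 0.51, adjusted p = 0.048). Within the batches the log2 difference was 0.36 in libraries with more non-unique reads and 0.40 in those with fewer, and the batch fit gave 0.38 (adjusted p = 6.5e-05). Of its canonical exons, 11.5% overlap TPBGL-AS1 on the other strand, and whether the counting used strand is not given in the sources used here. SLCO2B1 was no longer called with the DESeq2 size factors or without a filter on low counts.

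The liver-specific members of that family were near absent. SLCO1B1, which takes up bilirubin, statins and bile acids in normal liver, had 0.41, 0.30 and 0.38 CPM in control and 0.42, 0.54 and 0.77 CPM in MTR4 KD libraries. The MTR4 KD values were all above the control values, but the log2 fold change of 0.67 had a wide interval (-0.09 to 1.42, adjusted p = 0.324). SLCO1B3, its close relative with a similar range of substrates, had 1 read in control 3 and none elsewhere, where 3 reads correspond to 0.0414 to 0.0497 CPM. Of the exons of SLCO1B3, 64.1% are shared with the readthrough gene SLCO1B3-SLCO1B7, and reads on shared exons may have been set aside as ambiguous. Next to SLCO1B1 on chromosome 12, SLCO1A2, a carrier of bile acids and thyroid hormones, had 2.25 ± 0.32 CPM in control and 2.09 ± 0.27 CPM in MTR4 KD (adjusted p = 0.795), and is named here for its place after its values were seen.

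Among the 7 organic cation and carnitine transporters of the SLC22A family, 5 were tested and none was called with condition only. SLC22A5 (OCTN2), the high-affinity carnitine transporter, had 21.8, 21.0 and 20.9 CPM in control and 19.8, 21.1 and 20.3 CPM in MTR4 KD libraries. Its groups overlapped, and the interval of its log2 fold change was -0.22 to 0.10 (adjusted p = 0.707). Of its exons, 9.98% overlap MIR3936HG on the other strand.

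SLC22A15, a carrier of carnitine and zwitterions, had 6.50, 7.18 and 7.13 CPM in control and 4.50, 4.87 and 5.42 CPM in MTR4 KD libraries. All MTR4 KD libraries were below all controls, and the log2 fold change was -0.49 (adjusted p = 0.059), or -0.48 in the batch fit (adjusted p = 0.0064). SLC22A3 (OCT3), a carrier of monoamines and other organic cations, is named after its values were seen, since 1 library decides its value. It had 0.28, 0.39 and 0.32 CPM in control and 3.72, 0.30 and 0.60 CPM in MTR4 KD, so that MTR4 KD 1 alone stood far above the rest and MTR4 KD 2 lay within the control range. Its log2 fold change of 2.23 had an interval of 0.13 to 4.32 (adjusted p = 0.243), while DESeq2 called it (adjusted p = 0.040). The neighbouring SLC22A2 had at most 11 reads, also in MTR4 KD 1, and was not tested.

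Among the 15 organic anion and orphan members of the SLC22A family, 8 were tested, none was called in either fit, and 2 (SLC22A6 and SLC22A14, named after their values were seen) had no read. SLC22A18 had 109.9, 76.0 and 119.7 CPM in control libraries 1 to 3 and 68.7, 75.1 and 108.7 CPM in MTR4 KD libraries 1 to 3. Its high values were the libraries with more non-unique reads, whose mean was 1.54 times that of the others. Without the batch its log2 fold change was -0.28 (interval -0.79 to 0.24, adjusted p = 0.554), and with the batch -0.08 (interval -0.19 to 0.03, adjusted p = 0.302). SLC22A23, an orphan member, had 76.2, 75.9 and 75.9 CPM in control and 71.4, 74.2 and 70.1 CPM in MTR4 KD. These small differences lay below every control library, with a log2 fold change of -0.08 (interval -0.21 to 0.05, adjusted p = 0.493). Of its exons, 20.9% overlap PSMG4 on the other strand.

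SLC22A9 (OAT7), a liver carrier of sulfated steroids and short-chain fatty acids, had 5.55, 5.99 and 6.93 CPM in control and 7.51, 7.85 and 7.50 CPM in MTR4 KD. Its groups did not overlap, and its log2 fold change of 0.31 (interval 0.05 to 0.56) had an adjusted p of 0.187, or 0.053 with the batch. SLC22A7 (OAT2), a liver carrier of nucleobases, cyclic nucleotides and creatinine, had 0.21, 0.28 and 0.12 CPM in control and 0.34, 0.45 and 0.28 CPM in MTR4 KD. Although all its MTR4 KD values were higher, some by little, the interval of its log2 fold change ran from -0.16 to 1.78 (adjusted p = 0.344). Both genes show values above control in MTR4 KD without passing the test.

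Export pumps of the ABCC family held both efflux calls, with 1 gene higher and 1 lower among 8 tested of 9, and these are neighbours on chromosome 16. ABCC1 (MRP1, ENSG00000103222), which exports glutathione conjugates, leukotrienes and many anticancer drugs, runs on the plus strand of GRCh38 from 15949143 to 16143053. ABCC6 (MRP6, ENSG00000091262), whose activity at the liver cell surface releases ATP and whose loss causes pseudoxanthoma elasticum, runs on the minus strand from 16149565 to 16223494. The genes point at each other with 6511 bases between their ends.

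ABCC1 had 97.2, 103 and 110.2 CPM in control libraries 1 to 3 and 79.9, 82.9 and 71.8 CPM in MTR4 KD libraries 1 to 3. Every MTR4 KD library was below every control, with a log2 fold change of -0.40 (interval -0.59 to -0.22, adjusted p = 0.041). Within the batches the log2 difference was -0.53 with more non-unique reads and -0.34 with fewer, and the batch fit gave -0.43 (adjusted p = 0.00018). ABCC6 went the other way, from 45.9, 43.4 and 46.7 CPM in control to 55.4, 61.0 and 65.4 CPM in MTR4 KD. Its groups did not overlap either, with 0.42 as its log2 fold change (interval 0.24 to 0.60, adjusted p = 0.032), 0.50 and 0.42 within the batches and 0.46 in the batch fit (adjusted p = 4.4e-05).

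ABCC6 shares sequence with the pseudogenes ABCC6P1 and ABCC6P2, which are named for that after their values were seen. In GENCODE transcripts lifted to GRCh37, ABCC6P1 matched 1169 bases of the 5140-base canonical ABCC6 transcript at 99.3% identity with 8 differing bases, and ABCC6P2 matched 472 bases at 99.4% with 3 differing bases. Of the 5091 words of 50 bases in the ABCC6 transcript, 822 (16.1%) occur without a difference in a pseudogene. The sequence of such a word alone does not tell the genes apart. This word length was chosen here and not taken from the length of the reads. The stretch from base 162 to base 251 of the ABCC6 transcript, counted from its first base, is shown. It was picked as the first 90 coding bases, aligned to both pseudogenes, with the most differing positions, so it is not typical. It is written 5′ to 3′ in the transcript's direction with capitals at the 2 positions where the 3 genes are not all alike.
ABCC6: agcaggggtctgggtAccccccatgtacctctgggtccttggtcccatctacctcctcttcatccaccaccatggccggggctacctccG
ABCC6P1: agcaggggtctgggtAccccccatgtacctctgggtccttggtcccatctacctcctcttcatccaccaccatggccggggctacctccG
ABCC6P2: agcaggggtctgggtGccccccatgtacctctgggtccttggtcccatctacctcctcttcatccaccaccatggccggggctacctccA
Over these 90 bases ABCC6P1 equals ABCC6, and ABCC6P2 differs from it at 2 positions.

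Both pseudogenes were counted well above the low end. ABCC6P1 had 1081, 1270 and 1029 reads in control and 1333, 1408 and 1435 reads in MTR4 KD, a log2 fold change of 0.34 (adjusted p = 0.053). ABCC6P2 had 533, 537 and 536 reads in control and 801, 752 and 845 reads in MTR4 KD, a log2 fold change of 0.61 (adjusted p = 0.035). The gene and both pseudogenes had all MTR4 KD libraries above all controls in CPM. Non-unique alignments were among the entries that HTSeq did not assign, and the part of shared sequence in these counts was not tested.

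The most abundant export pump, ABCC2, had 362, 373 and 362 CPM in control and 351, 361 and 352 CPM in MTR4 KD. Its MTR4 KD libraries lay just below the controls, and the interval of its log2 fold change was -0.17 to 0.08 (adjusted p = 0.705). ABCC4 (MRP4), which exports cyclic nucleotides, nucleotide analogs and bile acids to blood, had 104.8, 97.0 and 101.9 CPM in control and 107.8, 111.8 and 116.3 CPM in MTR4 KD. The groups did not overlap, and its log2 fold change of 0.15 (adjusted p = 0.267) became 0.17 in the batch fit (interval 0.09 to 0.26, adjusted p = 0.0084). ABCC5 (MRP5), another exporter of cyclic nucleotides and of folate analogs, had 60.0, 65.6 and 57.9 CPM in control and 63.0, 63.5 and 60.6 CPM in MTR4 KD, and its log2 fold change of 0.03 turned to -0.01 in the batch fit and when control 3 was left out.

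ABCC11 (MRP8), known from apocrine glands and earwax type, had 1.83, 1.53 and 1.48 CPM in control and 2.97, 2.86 and 2.30 CPM in MTR4 KD. All MTR4 KD libraries were higher, with 0.75 as the log2 fold change (interval 0.35 to 1.15, adjusted p = 0.067) and 0.70 in the batch fit (adjusted p = 0.015). Its log2 difference was 0.46 in libraries with more non-unique reads and 0.88 in those with fewer. ABCC3 (MRP3), the pump on the blood side of the hepatocyte that exports glucuronides, had 5.50, 5.95 and 6.24 CPM in control and 5.54, 4.66 and 5.45 CPM in MTR4 KD. Its groups overlapped at MTR4 KD 1, and the log2 fold change of -0.18 had an interval of -0.44 to 0.09 (adjusted p = 0.456).

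**Figure D3:**
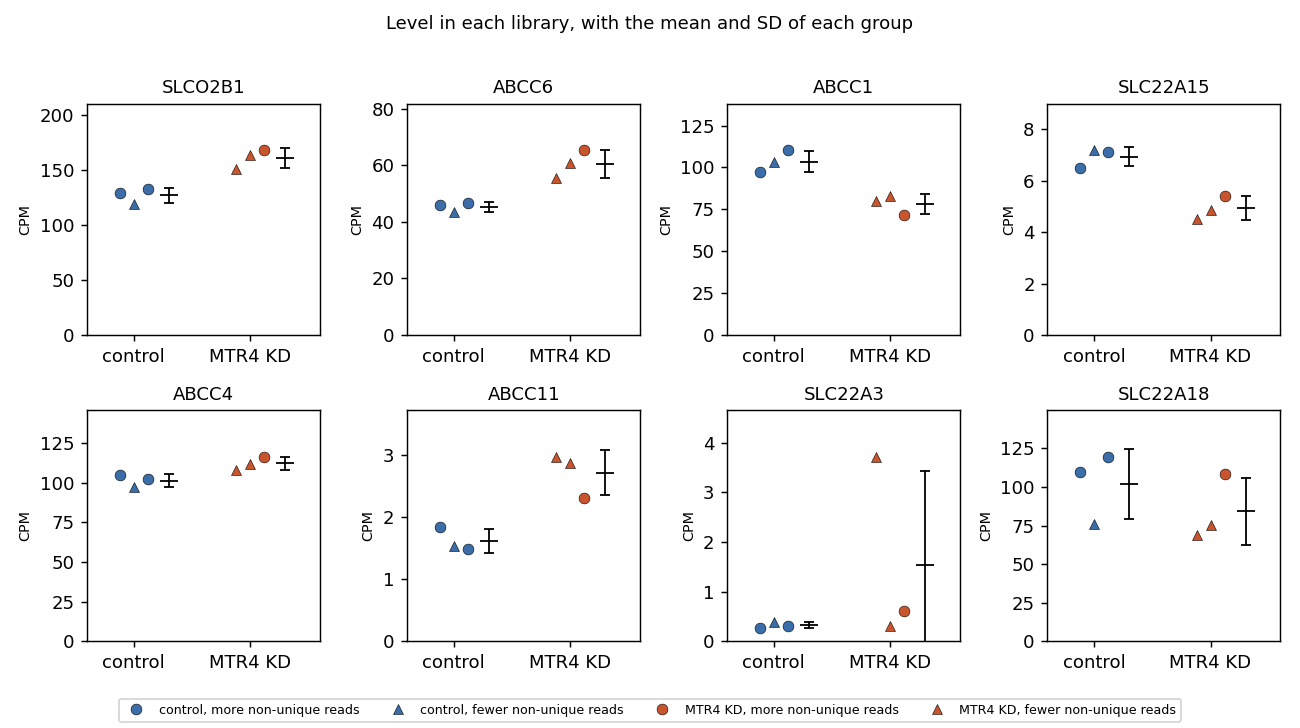
Level in CPM of 8 transporter genes in each library, with the mean and SD of each group of 3 (the lower bar of SLC22A3 in MTR4 KD is cut at 0). The first 6 genes, which passed the test in at least 1 of the 2 fits, show no overlap between groups, SLC22A3 has 1 high library (MTR4 KD 1), and SLC22A18 is high in the 3 libraries with more non-unique reads.

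Of the cell-surface pumps ABCB1, ABCB4, ABCB5, ABCB11 and ABCG2, 3 were tested and none was called in either fit. ABCB1 (MDR1, P-glycoprotein), the classical multidrug efflux pump, had 5.19, 5.32 and 5.06 CPM in control and 5.41, 5.26 and 3.91 CPM in MTR4 KD. MTR4 KD 3 was the low library, and the log2 fold change of -0.09 (interval -0.43 to 0.24, adjusted p = 0.777) turned to 0.04 without it. ABCG2 (BCRP), which exports urate, porphyrins and many anticancer drugs, had 95.2, 87.8 and 92.6 CPM in control and 83.0, 85.6 and 80.7 CPM in MTR4 KD. Its MTR4 KD values were all lower, with a log2 fold change of -0.14 (interval -0.29 to -0.003) that did not pass adjustment with condition only (adjusted p = 0.259) or with the batch (adjusted p = 0.056).

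The pumps for phosphatidylcholine and for bile salts had few reads. ABCB4 (MDR3), the phosphatidylcholine pump of the bile canaliculus, had 0.50, 0.55 and 0.38 CPM in control and 0.23, 0.34 and 0.20 CPM in MTR4 KD. Its groups did not overlap, and the log2 fold change of -0.90 (interval -1.70 to -0.10) had an adjusted p of 0.220. ABCB11 (BSEP), the bile salt export pump, had 1 read in control 3 and none in the other libraries. On chromosome 7, ABCB4 and ABCB1 lie on the minus strand with 26989 bases between them, and their means over all libraries were 0.086 and 0.97 CPM per kilobase.

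The proton antiporter SLC47A1 (MATE1), which passes organic cations such as metformin out of the cell, had 4.15, 4.28 and 4.31 CPM in control and 4.29, 3.76 and 3.65 CPM in MTR4 KD. Its groups overlapped at MTR4 KD 1, and its log2 fold change of -0.12 had an interval of -0.39 to 0.14 (adjusted p = 0.608). None of the 3 tested of the 4 ABCG sterol transporters was called, with log2 fold changes from -0.51 for ABCG1 to 0.03 for ABCG5.

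Transporters of inner membranes did not pass the test in either fit. The mitochondrial transporter ABCB10, which is needed for red cell formation, had 81.4 ± 3.78 CPM in control and 84.3 ± 3.68 CPM in MTR4 KD, a log2 fold change of 0.05 (interval -0.10 to 0.20). This gene is named after its values were seen. The sulfonylurea receptor genes ABCC8 and ABCC9 had at most 4 reads in a library and were not tested.

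Some of these genes lie side by side in the genome. On chromosome 11 SLC22A10 and SLC22A9 lie 6640 bases apart on the plus strand, and their log2 fold changes were -0.21 (adjusted p = 0.324) and 0.31. On chromosome 5 SLC22A4 had a mean of 0.28 CPM per kilobase over all libraries, beside 6.35 CPM per kilobase for SLC22A5, which begins 25519 bases further on. On chromosome 16 ABCC12 had at most 2 reads in a library, beside ABCC11 with a gap of 8825 bases. Among the 22 pairs of these genes that follow each other on a chromosome with a gap under 500000 bases, ABCC1 and ABCC6 was the only pair in which both genes passed the test with condition only. Most of these pairs held a gene that was not tested. Only 2 transporter genes were called higher and 1 lower in all, so few pairs could have had both genes called. SLC22A10, SLC22A4 and ABCC12 were chosen for their position after their values were seen.

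The library batch separated some transporter genes. For 8 of the 39 tested the 3 libraries of one batch did not overlap the 3 of the other, beside 35.3% of all tested genes, namely SLC22A18, SLC22A17, SLC22A31, ABCB8, ABCB9, ABCB1, ABCC5 and ABCG4, listed for that after their values were seen. The ratio of the batch with more non-unique reads to the other was 2.03 for SLC22A31, 1.38 for ABCB8, 1.36 for SLC22A17 and 0.886 for ABCB1. SLC22A17, which is a receptor for siderophore-bound lipocalin, had 6.23 ± 0.41 CPM in control and 4.64 ± 1.16 CPM in MTR4 KD, and was called lower when MTR4 KD 3 was left out, as was SLC22A15.

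**Figure D4:**
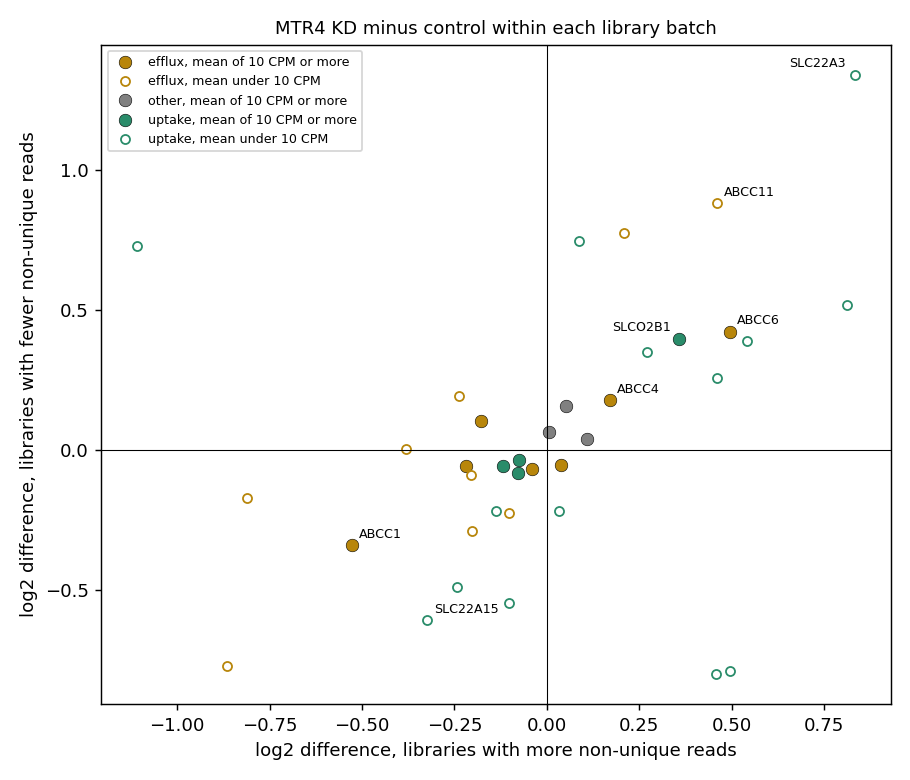
Difference of the mean log2(CPM + 0.1) between MTR4 KD and control within the libraries with more non-unique reads (x axis) and within those with fewer (y axis), with 1 point for each tested transporter gene that is reported. Filled points have a mean of at least 10 CPM. SLCO2B1, ABCC6, ABCC4, ABCC11 and SLC22A3 lie in the upper right and ABCC1 and SLC22A15 in the lower left, and the points far from 0 in opposite directions are genes under 10 CPM.

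All 3 genes called with condition only were among the 15 tested transporter genes with a mean of at least 10 CPM, and none was among the 24 tested with less. With the batch, 4 of those 15 were called, and of the 24 lower ones ABCC11 and SLC22A15. Over all tested genes 1.48% were called higher and 2.12% lower with condition only, and 9.43% and 10.8% with the batch. These shares were not split by level, so the split is not read as a trait of the transporter genes.

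Around these families, a list of 24 related transporters outside the name rule (bile acid, nucleoside, peptide, folate, copper and lipid carriers among them) had 20 tested genes. Of these, 0 were called higher and 1 lower with condition only, where 1.48% and 2.12% of all tested genes were. The batch fit called 3 higher and 3 lower, where it called 9.43% and 10.8% of all tested genes. SLC15A1 (PEPT1), the proton-coupled carrier of small peptides and peptide-like drugs, had 106, 120.2 and 112 CPM in control and 77.6, 77.5 and 64.6 CPM in MTR4 KD. All MTR4 KD libraries were lower, with a log2 fold change of -0.62 (SE 0.092, adjusted p = 0.015). It was not called when control 1, control 3, MTR4 KD 1 or MTR4 KD 2 was left out, with adjusted p-values up to 0.072. The bile acid carrier SLC10A1 (NTCP), the entry receptor of hepatitis B virus, was too low to be tested, at means of 0.15 CPM in control and 0.11 CPM in MTR4 KD, and is named after its values were seen.

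Of 16 nuclear receptors, transcription factors and scaffolds known to act on drug transporters, all were tested. With condition only 1 was called higher and 0 lower, beside 1.48% and 2.12% of all tested genes. With the batch 5 were called higher and 3 lower, beside 9.43% and 10.8%. The list was chosen with earlier results known, and these counts were not tested against the shares. PDZK1, a scaffold whose PDZ domains bind the tails of several of these transporters at the membrane, had 80.7, 90.5 and 81.0 CPM in control and 153, 161 and 132 CPM in MTR4 KD. Its log2 fold change was 0.83 (SE 0.092, adjusted p = 0.0051), and it was called in all 15 alternatives tried.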

How the data were processed

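RNA-seq of PLC/PRF/5 cells gave 6 libraries, 3 control and 3 MTR4 KD, grouped by the sample labels. The authors deposited raw counts of reads per gene for each library, with no normalization, and the numbers of entries that HTSeq did not assign. The submitters' processing notes name HISAT2 2.1.0, HTSeq, DESeq2 and GRCh38, and the strand setting of the counting is not given in the sources used here. Libraries held 60686786 to 72708682 counted reads, and intervals cover the spread between libraries.

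Symbols and transcripts are those of GENCODE on GRCh37 (lifted over), where 56959 of 60675 gene identifiers were found, and positions came from RefSeq on GRCh38.p14, matched by symbol for 60 of the 61 transporter genes. R 4.3.3 with edgeR 4.0.16 kept genes by filterByExpr (minimum of 10 counts), scaled libraries by TMM and fitted the quasi-likelihood test with condition only, over all genes. A gene was called at an adjusted p (Benjamini-Hochberg) under 0.05. The same fit with the library batch, split at 30% of entries on non-unique alignments, was an alternative. Others were DESeq2 1.42.0 (size factors, Wald test), total-count scaling, limma-voom 3.58.1, 2 other filters, protein-coding genes only, the replicate number as a block and each library left out. The fit with condition only was tried on simulated counts that had 2-fold changes and no library batch. That simulation does not cover the other fits or smaller changes.

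Genes are named if called in either fit, if among the 5 highest uptake or efflux genes per kilobase, or if on a list of 13 liver drug and bile acid transporters. The transporter genes and all lists were chosen with earlier results of these data known. Of the list of other cell types, PECAM1 was not matched. Values of 2 transporter genes are not reported here, though counts and sums include them.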

Additional observations from a re-analysis of the deposited data

How the results depend on the processing

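The fit with condition only called 2 transporter genes higher, 1 lower and 0 past a fold of 2, among 650 genes called in all. The higher count was 1 with DESeq2 size factors, 1 without a filter on low counts, 4 with DESeq2's Wald test and 4 with the library batch, and 0 whichever library was left out. The lower count was 2 with DESeq2's Wald test, 2 with the library batch, 2 with the replicate block, and from 0 to 2 with 1 library left out, where the 2 genes called without MTR4 KD 3 (SLC22A17 and SLC22A15) were other genes than ABCC1. DESeq2's Wald test put 1 transporter gene, SLC22A3, past both thresholds. Over all genes, DESeq2's Wald test called 1363, the library batch 3649, and leaving out 1 library from 137 (without MTR4 KD 2) to 803 (without control 2). The cause of these moves was not tested, apart from the smaller number of libraries when 1 is left out.

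The median log2 fold change stayed between -0.11 and 0.01 for uptake genes and between -0.10 and -0.05 for efflux genes over the 15 alternatives. ABCB1 turned to 0.0407 without MTR4 KD 3 (from -0.1744 to 0.0407 with 1 library left out). ABCC5 turned to -0.0076 with the library batch and to -0.01139 without control 3 (from -0.01139 to 0.07468 with 1 library left out). SLCO2B1, ABCC6 and ABCC1 kept their direction in all 15 alternatives.

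Whether the replicate numbers pair the libraries cannot be told apart from the batch. Libraries numbered 2 shared a batch, as did those numbered 3, while those numbered 1 did not. Deviations of same-numbered libraries had correlations from -0.28 to 0.40, with a mean of 0.16 beside -0.10 for other numbers. Only SLC22A15 was called in addition with the replicate block (adjusted p = 0.0497), which called 857 genes in all. Libraries of the same batch had a mean correlation of 0.39 and those of different batches -0.33. The biological coefficient of variation was 0.175 with condition only, 0.125 with the block and 0.0573 with the library batch. At a floor of 3 reads, levels under 0.0414 to 0.0497 CPM could not be told from none.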

Other observations

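The name rule also matched 15 counted genes that are not protein-coding, of which SLC22A18AS, ABCC6P1, ABCC6P2, SLCO4A1-AS2 and SLC22A20P passed the count filter. SLC22A18AS, which lies antisense to SLC22A18, had 218, 154 and 170 reads in control and 168, 172 and 207 reads in MTR4 KD, a log2 fold change of 0.04 (adjusted p = 0.945). SLCO4A1-AS2, antisense to SLCO4A1 by name, had 15, 16 and 8 reads in control and 40, 25 and 21 reads in MTR4 KD, a log2 fold change of 1.18 (adjusted p = 0.178). SLC47A1P1, a pseudogene named after SLC47A1, had 40, 8 and 19 reads in control and 3, 3 and 3 reads in MTR4 KD and did not pass the filter.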
